A study of Mus musculus with 24 samples.

Results

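Imprinted genes that control fetal growth were followed through E12.5 mouse liver. The members were set as a list of 10 gene names (Igf2, H19, Dlk1, Meg3, Cdkn1c, Peg3, Grb10, Plagl1, Mest and Igf2r), and 8 of them were found by name among the 25361 genes of the table. H19 and Meg3 were not analysed here. The 24 RNA-seq libraries comprised 12 of LSECs (liver sinusoidal endothelial cells, taken as CD146+ cells) and 12 of the non-EC cells that remained after CD146 selection. Each fraction had 4 genotypes with 3 replicates each. Controls carried no Cre. Chd4-ECKO embryos were Chd4 fl/fl;Brg1 fl/+;VE-cadherin-Cre+, Brg1-ECKO embryos were Chd4 fl/+;Brg1 fl/fl;VE-cadherin-Cre+, and Chd4/Brg1-ECDKO embryos were Chd4 fl/fl;Brg1 fl/fl;VE-cadherin-Cre+, so both single mutants also carried 1 floxed allele of the other gene. Chd4 and Brg1 (Smarca4) encode the ATPases of the NuRD and SWI/SNF chromatin remodeling complexes. VE-cadherin-Cre acts in endothelial cells and in some of the blood cells that descend from them, and the embryos were of mixed background and of both sexes. Each library came from 1 embryo by the methods of the study. The deposited values carry no read counts, so that depth is unknown.

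Imprinted genes are expressed mainly from the allele of a single parent, as set by DNA methylation that is laid down in the germ line and kept in the embryo. Genes expressed from the paternal allele (Igf2, Dlk1, Peg3, Plagl1 and Mest) tend to promote fetal growth, and genes expressed from the maternal allele (Cdkn1c, Grb10 and Igf2r) tend to restrain it. IGF2 is the main growth factor of the fetus and is made at high levels in fetal liver. TPM, a length-scaled measure in which the values of a library add up to a fixed total, count the reads of both alleles per length of the gene, so that levels can be compared between genes but parental origin was not measured.

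The promoters of 3 members are shown because they span the patterns described here, from the genes that differed most between the fractions (Mest and Plagl1) to the growth factor itself (Igf2). Each window holds 250 bases before and 50 bases from the start of the Ensembl canonical transcript in GRCm39. They lie at chr6:30737794-30738093 on the plus strand for Mest, chr10:12966159-12966458 on the plus strand for Plagl1 and chr7:142211184-142211483 on the minus strand for Igf2. Capitals mark TGCCGC, the hexamer read by the imprint-keeping zinc finger protein ZFP57, which was searched on both strands and appears as GCGGCA where it lies on the other strand.
Mest: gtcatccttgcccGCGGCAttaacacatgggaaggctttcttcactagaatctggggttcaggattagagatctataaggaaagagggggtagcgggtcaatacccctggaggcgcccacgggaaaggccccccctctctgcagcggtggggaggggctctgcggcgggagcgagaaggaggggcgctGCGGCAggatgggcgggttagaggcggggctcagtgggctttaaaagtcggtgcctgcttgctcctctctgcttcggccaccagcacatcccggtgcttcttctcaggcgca
Plagl1: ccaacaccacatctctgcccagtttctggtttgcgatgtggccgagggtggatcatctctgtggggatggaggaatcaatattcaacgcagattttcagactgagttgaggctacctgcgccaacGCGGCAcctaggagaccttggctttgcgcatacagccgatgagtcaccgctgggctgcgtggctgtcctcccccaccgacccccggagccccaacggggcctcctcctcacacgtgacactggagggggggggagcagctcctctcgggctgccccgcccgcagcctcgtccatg
Igf2: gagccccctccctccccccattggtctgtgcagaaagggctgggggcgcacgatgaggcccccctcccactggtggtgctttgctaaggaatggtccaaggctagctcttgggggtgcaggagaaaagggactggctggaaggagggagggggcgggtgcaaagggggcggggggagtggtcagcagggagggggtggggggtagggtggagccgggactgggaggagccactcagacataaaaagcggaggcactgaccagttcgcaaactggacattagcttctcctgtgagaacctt
The hexamer was found 2 times in the Mest window and 1 time each in those of Plagl1 and Grb10, and not in those of Igf2, Igf2r, Dlk1 and Peg3. Of 21618 promoter windows of the same length, 11.7% held at least 1 such hexamer and 1.4% held at least 2. CpG dinucleotides numbered 45 for Grb10, 34 for Igf2r, 33 for Dlk1, 18 for Plagl1, 17 for Mest, 9 for Peg3 and 7 for Igf2, with a median of 11 over all windows. Methylation and binding were not measured.

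The first comparison asked how the members were divided between LSECs and non-EC cells. Mest, Plagl1, Peg3 and Cdkn1c were far higher in LSECs, whereas Igf2, Igf2r, Grb10 and Dlk1 differed between the fractions by less than 2 times in mean TPM. By the thresholds of the study (absolute log2 fold change above 1 and adjusted p under 0.05), 4 of the 8 members were DEGs over the 4 genotypes, all higher in LSECs, beside 29.0% of the 13775 genes tested. In controls alone the same 4 were DEGs, beside 32.7% of genes. Fold changes are given on the log2(TPM + 1) scale with 95% intervals, and p-values are from limma, adjusted over all genes tested.

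**Figure D1:**
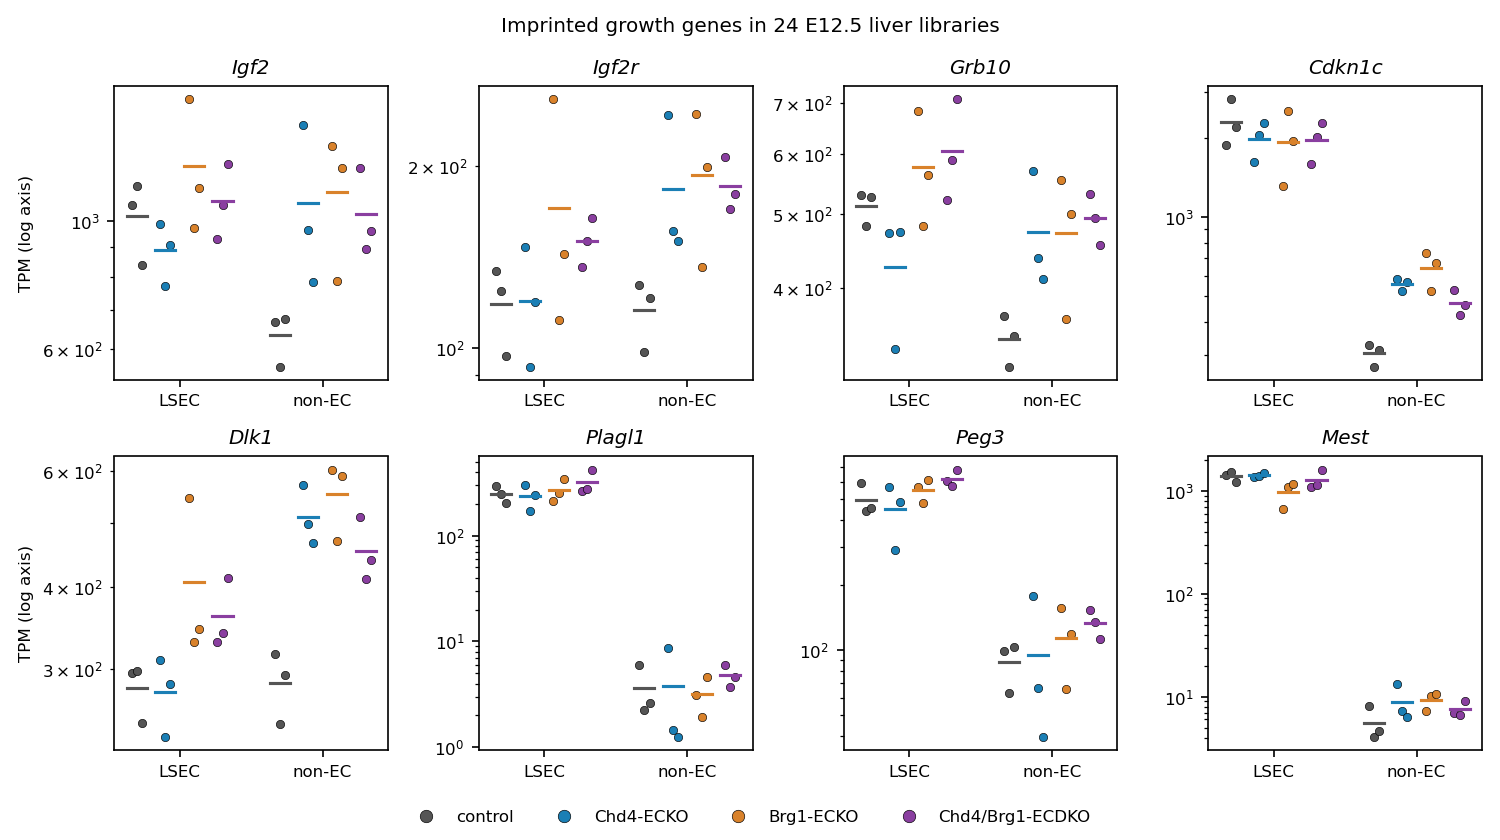
TPM of each member in the 24 libraries on log axes that differ between panels. Points are libraries, bars are means of 3 replicates, and the left and right clusters are LSECs and non-EC cells. Mest, Plagl1, Peg3 and Cdkn1c do not overlap between the fractions, and the control points lie lowest in the non-EC clusters of Igf2, Dlk1 and Cdkn1c.

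Mest (mesoderm specific transcript, an enzyme-like protein of the endoplasmic reticulum) lies at chr6:30723546-30752058. It had 1415, 1507 and 1222 TPM in the LSEC controls and 8.12, 4.05 and 4.63 TPM in the non-EC controls. Over 12 libraries each, it ranged from 669 to 1598 TPM (median 1286) in LSECs and from 4.05 to 13.3 TPM (median 7.27) in non-EC cells. No library of either fraction came near the other, and the log2 fold change over the 4 genotypes was 7.18 (6.92 to 7.44, adjusted p = 3.48e-21). Mest was the member with the largest difference. Copg2 overlaps Mest on the opposite strand, and the sources used here do not say whether counting used strand.

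Plagl1 and Peg3 encode zinc finger transcription factors of the imprinted gene network. Plagl1 (chr10:12936248-13007438) had 296, 246 and 201 TPM in the LSEC controls and 6.03, 2.25 and 2.60 TPM in the non-EC controls. It ranked 500 among all genes in LSEC controls and 9907 in non-EC controls by mean TPM. Its log2 fold change was 5.89 (5.46 to 6.32, adjusted p = 1.52e-16). Peg3 (chr7:6706882-6733468) had 593, 441 and 452 TPM in the LSEC controls and 98.6, 63.2 and 103 TPM in the non-EC controls. The range over 12 libraries was 289 to 680 TPM in LSECs and 39.5 to 177 TPM in non-EC cells, so that the fractions did not overlap. Its log2 fold change was 2.38 (1.98 to 2.77, adjusted p = 1.66e-10).

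Cdkn1c encodes p57, an inhibitor of cyclin-dependent kinases that holds cells out of the cell cycle, and lies at chr7:143012069-143014806. It was the most abundant member in LSECs, with 1891, 2818 and 2210 TPM in the controls, which ranked it 38 among all genes. The non-EC controls had 327, 270 and 312 TPM. Over 12 libraries it ranged from 1316 to 2818 TPM in LSECs and from 270 to 732 TPM in non-EC cells, without overlap. The log2 fold change was 2.91 (2.48 to 3.33, adjusted p = 9.87e-11) in controls and 2.09 (1.87 to 2.30, adjusted p = 4.91e-14) over the 4 genotypes.

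Igf2, the ligand, lies at chr7:142204503-142220694. It had 1068, 1150 and 838 TPM in the LSEC controls and 667, 559 and 675 TPM in the non-EC controls. The control libraries did not overlap, and the log2 fold change in controls was 0.68 (0.19 to 1.16, adjusted p = 0.0141). This call was lost without LSEC control replicate 2 (0.58, adjusted p = 0.0587) or without non-EC control replicate 2 (0.59, adjusted p = 0.0566). Over the 4 genotypes the ranges overlapped, from 770 to 1627 TPM in LSECs and from 559 to 1471 TPM in non-EC cells, and the log2 fold change was 0.17 (-0.07 to 0.41, adjusted p = 0.178). It passed the threshold where TPM were scaled without mitochondrial and globin genes (0.43, adjusted p = 0.00253) or quantile normalized (0.49, adjusted p = 0.00186). Mitochondrial genes took 13.9% to 31.5% of TPM per LSEC library against 2.33% to 7.69% per non-EC library.

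Igf2r, the receptor that carries IGF2 to the lysosome, lies at chr17:12901293-12988614. It had 134, 124 and 96.8 TPM in the LSEC controls and 127, 98.4 and 121 TPM in the non-EC controls, which overlapped. Its log2 fold change over the 4 genotypes was -0.28 (-0.54 to -0.01, adjusted p = 0.0536). With the LSEC and non-EC libraries of the same genotype and replicate number paired as a block, the adjusted p was 0.00328 at the same fold change, and under quantile normalization the value was 0.02. Without LSEC Brg1-ECKO replicate 1 it was -0.36 (adjusted p = 0.00489). Airn, a noncoding RNA of the same imprinted cluster, overlaps Igf2r on the opposite strand.

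Grb10, an adaptor that dampens signalling of the insulin and IGF receptors, lies at chr11:11880498-11988683. It had 530, 483 and 527 TPM in the LSEC controls and 368, 316 and 346 TPM in the non-EC controls, without overlap. Its log2 fold change was 0.58 (0.22 to 0.94, adjusted p = 0.00544) in controls and 0.25 (0.07 to 0.43, adjusted p = 0.0107) over the 4 genotypes. Dlk1, a membrane protein of the Notch ligand family that marks hepatoblasts, lies at chr12:109418749-109429262. It had 295, 298 and 248 TPM in the LSEC controls and 316, 247 and 293 TPM in the non-EC controls. Over the 4 genotypes Dlk1 was lower in LSECs, with a log2 fold change of -0.43 (-0.61 to -0.26, adjusted p = 8.38e-05). This call was lost without mitochondrial and globin genes (-0.18, adjusted p = 0.0662) and under quantile normalization (-0.12, adjusted p = 0.198). By adjusted p alone, 6 of the 8 members passed, beside 82.6% of genes, so that a pass in this comparison was common.

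The levels in the fractions were read beside the markers of the cells they can hold. The summed TPM of 8 endothelial genes (Cdh5, Pecam1, Kdr, Tek, Stab2, Lyve1, Mcam and Erg) spanned 857 to 1790 for LSECs and 25.8 to 59.7 for non-EC cells. The summed TPM of 8 mesenchymal genes (Des, Pdgfrb, Pdgfra, Col1a1, Col3a1, Lhx2, Reln and Acta2) spanned 846 to 1453 for LSECs and 51.0 to 180 for non-EC cells, and 7 of the 8 genes had a higher median in LSECs, the exception being Reln. The CD146+ fraction thus held mesenchymal RNA along with endothelial RNA. For 4 mesothelial genes the sums were 48.8 to 109 and 0.609 to 4.43 TPM. In bulk RNA, more cells of a type and more RNA per cell cannot be told apart, and the part of each cell type in the LSEC levels of Mest, Plagl1, Peg3 and Cdkn1c was not tested.

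The members were set beside the endothelial and mesenchymal sums across the 12 LSEC libraries, after the mean of each genotype was subtracted, and no difference between 2 correlations was tested. Mest followed the endothelial sum (Pearson r = 0.90, permutation p = 0.0001, BH-adjusted over the 8 members 0.0008; Spearman rho = 0.90, p = 8e-05, adjusted 0.00064). Peg3 followed the mesenchymal sum (r = 0.92, p = 0.00011, adjusted 0.00088; rho = 0.83, p = 0.00132, adjusted 0.0106), as did Plagl1 (r = 0.86, p = 0.00047, adjusted 0.00188; rho = 0.76, p = 0.00684, adjusted 0.0274). Without the 2 libraries farthest from the median, r was 0.78 for Mest, 0.83 for Peg3 and 0.82 for Plagl1. The deviations of 3 replicates from their mean are not free of each other. An exact permutation within genotypes gave p = 0.000772 for Mest, the smallest it can give, 0.0116 for Peg3 and 0.00849 for Plagl1. Plagl1 also had r = 0.69 with the endothelial sum (p = 0.0129, adjusted 0.0518; rho = 0.72, p = 0.0111, adjusted 0.0297), with 0.57 without the 2 farthest libraries and p = 0.0309 by the exact permutation. Grb10 had r = 0.71 with the mesenchymal sum (p = 0.0109, adjusted 0.0291; rho = 0.63, p = 0.0335, adjusted 0.0893), with 0.59 without the 2 farthest libraries and p = 0.0471 by the exact permutation. Cdkn1c followed neither past the adjusted threshold by r (0.62 with the endothelial sum, p = 0.0299, adjusted 0.0797), while its rank correlation did pass (rho = 0.76, p = 0.00586, adjusted 0.0234), and the exact permutation within genotypes gave p = 0.146. The lists were those of the cell type markers, and these 16 relations and the permutation within genotypes were added after the data were seen.

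**Figure D2:**
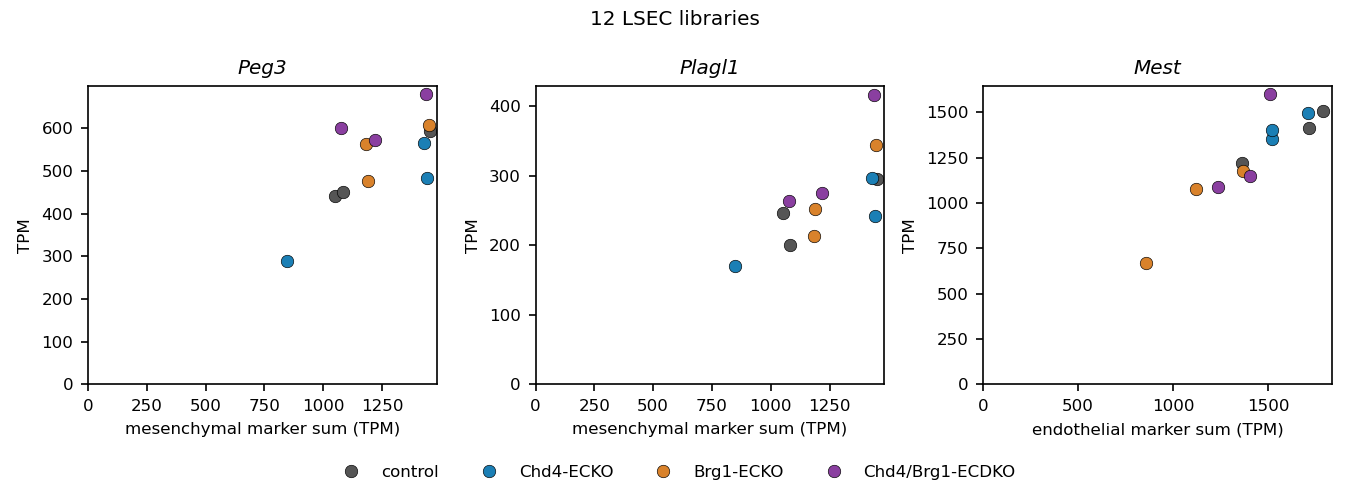
TPM of Peg3 and Plagl1 against the summed TPM of 8 mesenchymal genes, and TPM of Mest against the summed TPM of 8 endothelial genes, in the 12 LSEC libraries. Points are libraries coloured by genotype. The Brg1-ECKO library with the lowest endothelial sum (857 TPM) also has the lowest Mest (669 TPM).

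Hepatoblast RNA set a library apart. The summed TPM of 8 hepatoblast genes (Afp, Alb, Ttr, Apoa1, Apoa2, Serpina1a, Fgb and Hnf4a) was 27767 in LSEC Brg1-ECKO replicate 1 and 3242 to 7769 in the other 11 LSEC libraries. That library had the highest Igf2, Dlk1 and Igf2r of all LSEC libraries (1627, 546 and 258 TPM) and the lowest Mest and Cdkn1c (669 and 1316 TPM). Across LSEC libraries, r with the hepatoblast sum was 0.75 for Igf2r (permutation p = 0.0061, adjusted 0.0244), -0.74 for Mest (p = 0.00597, adjusted 0.0244), 0.69 for Dlk1 (p = 0.0132, adjusted 0.0351), 0.66 for Igf2 (p = 0.0192, adjusted 0.0383) and -0.62 for Cdkn1c (p = 0.0298, adjusted 0.0477). The rank correlations were 0.64, -0.58, 0.62, 0.59 and -0.53 (p = 0.0295, 0.0529, 0.0348, 0.0487 and 0.0808), and none passed after adjustment (0.106 or more). Without the 2 farthest libraries, r was 0.32, -0.45, 0.24, 0.25 and -0.17, and the exact permutation within genotypes gave p = 0.0841 to 0.194, so that these relations rest on the libraries that stand apart. The Brg1-ECKO effects in LSECs are given with and without this library.

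The second comparison asked how the members changed in non-EC cells of embryos in which VE-cadherin-Cre deleted Chd4, Brg1 or both. Cdkn1c and Dlk1 rose in Chd4-ECKO and Brg1-ECKO non-EC cells, by 1.79 to 2.12 times in mean TPM. Igf2, Igf2r and Grb10 had mean TPM 1.38 to 1.77 times those of controls in the single mutants without passing the threshold. Mest, Plagl1 and Peg3 stayed below the lowest LSEC library in non-EC cells of every genotype. By adjusted p alone 2 of 8 members passed in Chd4-ECKO, beside 9.48% of the 12223 genes tested, 2 of 8 in Brg1-ECKO, beside 11.7%, and 0 of 8 in Chd4/Brg1-ECDKO, beside 0.581%. The 3 comparisons share the same control libraries and are not independent.

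Cdkn1c had 327, 270 and 312 TPM in non-EC controls. Its level was 584, 522 and 565 TPM in the Chd4-ECKO libraries, 732, 524 and 671 TPM in those of Brg1-ECKO, and 531, 424 and 464 TPM in those of Chd4/Brg1-ECDKO. Every mutant library lay above every control library. The log2 fold change was 0.88 (0.59 to 1.17, adjusted p = 0.00635) in Chd4-ECKO and 1.07 (0.78 to 1.36, adjusted p = 0.00133) in Brg1-ECKO. In Chd4/Brg1-ECDKO it was 0.64 (0.35 to 0.93, adjusted p = 0.0566), which did not pass. Cdkn1c in Brg1-ECKO was the only member called as a DEG in a mutant against control comparison, where 1.37% of genes were DEGs in that comparison, 0.884% in Chd4-ECKO and 0.115% in Chd4/Brg1-ECDKO. Its value fell below the fold threshold without non-EC control replicate 2 (0.99) or without non-EC Brg1-ECKO replicate 1 (0.97). With each library left out in turn, the number of members called in Brg1-ECKO ranged from 0 to 3. Besides Cdkn1c, only Dlk1 (up to 1.07) and Igf2 (up to 1.03) then exceeded the fold threshold. The share of all genes called with a library left out was not counted.

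Dlk1 had 316, 247 and 293 TPM in non-EC controls. Its level was 571, 498 and 466 TPM in the Chd4-ECKO libraries, 603, 469 and 591 TPM in those of Brg1-ECKO, and 511, 411 and 440 TPM in those of Chd4/Brg1-ECDKO. Control and mutant libraries did not overlap. Its log2 fold change was 0.84 (0.55 to 1.14, adjusted p = 0.00734) in Chd4-ECKO, 0.95 (0.66 to 1.25, adjusted p = 0.002) in Brg1-ECKO and 0.67 (0.38 to 0.96, adjusted p = 0.0516) in Chd4/Brg1-ECDKO.

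Igf2 had 667, 559 and 675 TPM in non-EC controls. Its level was 1471, 965 and 783 TPM in the Chd4-ECKO libraries, 1349, 788 and 1236 TPM in those of Brg1-ECKO, and 1235, 893 and 960 TPM in those of Chd4/Brg1-ECDKO. No mutant library overlapped the controls, but the mutant replicates were spread widely. The log2 fold change was 0.71 (0.18 to 1.25, adjusted p = 0.0761), 0.79 (0.26 to 1.33, adjusted p = 0.0588) and 0.69 (0.15 to 1.23, adjusted p = 0.244) in the 3 mutants in that order. Igf2r had 98.4 to 127 TPM in controls and 136 to 244 TPM over the mutant libraries, with log2 fold changes of 0.63, 0.70 and 0.69 (adjusted p = 0.0807, 0.064 and 0.194). Grb10 had 316 to 368 TPM in controls and 365 to 570 TPM in mutants, with log2 fold changes of 0.45, 0.44 and 0.52 (adjusted p = 0.082, 0.096 and 0.167). In Chd4-ECKO the value ranged from 0.46 to 0.91 for Igf2 and from 0.41 to 0.76 for Igf2r with single libraries left out. None of these 3 genes passed the threshold in the fit without a replicate block. With the block all 3 passed by adjusted p in both single mutants, although the numbers were not shown to pair embryos within a fraction.

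Mest, Plagl1 and Peg3 did not pass in any mutant. Mest had 4.05 to 8.12 TPM in non-EC controls and 6.36 to 13.3 TPM in mutants, with log2 fold changes of 0.58, 0.69 and 0.41 (adjusted p = 0.168, 0.137 and 0.696). Leaving out single libraries gave Mest values of 0.29 to 0.84 in Chd4-ECKO and 0.24 to 0.66 in Chd4/Brg1-ECDKO. Plagl1 gave -0.21, -0.09 and 0.39 (adjusted p = 0.804, 0.919 and 0.903), and Peg3 gave -0.15, 0.30 and 0.61 (adjusted p = 0.847, 0.69 and 0.736). In Chd4-ECKO, Peg3 ranged from 39.5 to 177 TPM, which alone spanned the range of all 12 non-EC libraries. Every mutant library lay above every control library for 5 of 8 members in Chd4-ECKO, beside 15.8% of genes, 4 of 8 in Brg1-ECKO, beside 21.9%, and 6 of 8 in Chd4/Brg1-ECDKO, beside 16.0%.

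**Figure D3:**
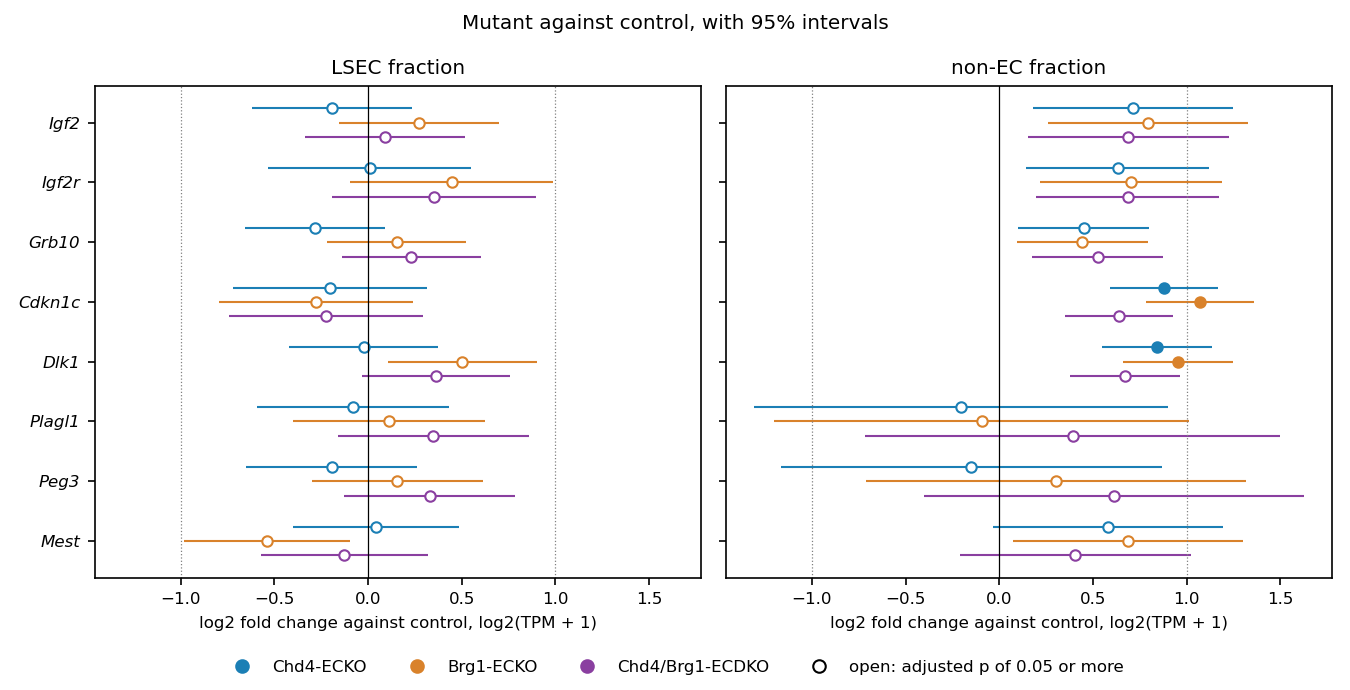
Log2 fold change of each member in the 3 mutants against control, with 95% intervals, in LSECs (left) and non-EC cells (right). Filled points passed an adjusted p of 0.05 and dotted lines mark the fold threshold. Cdkn1c and Dlk1 are filled in Chd4-ECKO and Brg1-ECKO non-EC cells, and no point is filled in LSECs.

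Hepatoblast markers moved with the genotypes in the same libraries. Their summed TPM was 17073 to 19159 in non-EC controls, 26088 to 35225 in Chd4-ECKO, 25603 to 37225 in Brg1-ECKO and 22026 to 29302 in Chd4/Brg1-ECDKO, so that every mutant library lay above every control library. Summed TPM of 8 erythroid genes were 2049 to 7457 in controls, 2393 to 7660 in Chd4-ECKO, 1408 to 2730 in Brg1-ECKO and 2223 to 2948 in Chd4/Brg1-ECDKO. These ranges overlapped, and 1, 2 and 0 of the 8 erythroid genes were called lower in the 3 mutants. Per 1000 TPM of hepatoblast markers, Cdkn1c was 16.9 ± 2.04 TPM (SD, n = 3) in controls, 19.3 ± 2.55 in Chd4-ECKO, 20.0 ± 0.407 for Brg1-ECKO and 18.9 ± 0.698 for Chd4/Brg1-ECDKO. Igf2 was 35.3 ± 3.77, 36.0 ± 5.87, 34.6 ± 3.33 and 41.0 ± 1.04 per 1000 in the same order, and Dlk1 was 15.9 ± 2.33, 17.6 ± 1.26, 17.4 ± 1.08 and 18.2 ± 0.647. For these 3 genes the single mutants differed less from controls per hepatoblast marker RNA than in TPM. For Peg3 the difference was larger in Chd4-ECKO, with 4.90 ± 1.18 per 1000 in controls and 3.01 ± 1.81 in the mutant, and in Brg1-ECKO it was 3.42 ± 0.816. Grb10, whose mean TPM was 1.38 times that of controls in each single mutant without passing the test, had lower means per 1000, with 19.1 ± 2.11 in controls, 16.1 ± 0.316 in Chd4-ECKO and 14.7 ± 0.37 in Brg1-ECKO. Plagl1 had 0.205 ± 0.128, 0.116 ± 0.113 and 0.0988 ± 0.033 in that order. These ratios were given no test. Within genotypes, Igf2 followed the hepatoblast sum across the 12 non-EC libraries (r = 0.93, permutation p = 2e-05, adjusted 0.00016; rho = 0.93, p = 6e-05, adjusted 0.00048). For Igf2r, Grb10, Dlk1, Peg3 and Cdkn1c, r was 0.90, 0.86, 0.81, 0.81 and 0.79 (permutation p = 0.00014, 0.00045, 0.0023, 0.00143 and 0.00258, adjusted 0.00056 to 0.00344) and rho 0.83, 0.79, 0.78, 0.80 and 0.70 (p = 0.00147, 0.00369, 0.00459, 0.0029 and 0.0146, adjusted 0.00588 to 0.0195). Without the 2 farthest libraries r was 0.90 for Igf2 and 0.72 to 0.87 for these 5 members, and the exact permutation within genotypes gave p = 0.00463 for Igf2 and 0.01 to 0.0193 for the 5. For Plagl1 r was 0.65 (permutation p = 0.0219, adjusted 0.025) and rho 0.64 (p = 0.0278, adjusted 0.0317), with r = 0.42 without the 2 farthest libraries and an exact p of 0.0556 within genotypes. Mest had the lowest values (r = 0.15, permutation p = 0.633; rho = 0.20, p = 0.528). These relations were added after the data were seen, and the part of hepatoblast and erythroid RNA in the rise of Cdkn1c and Dlk1 was not tested.

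**Figure D4:**
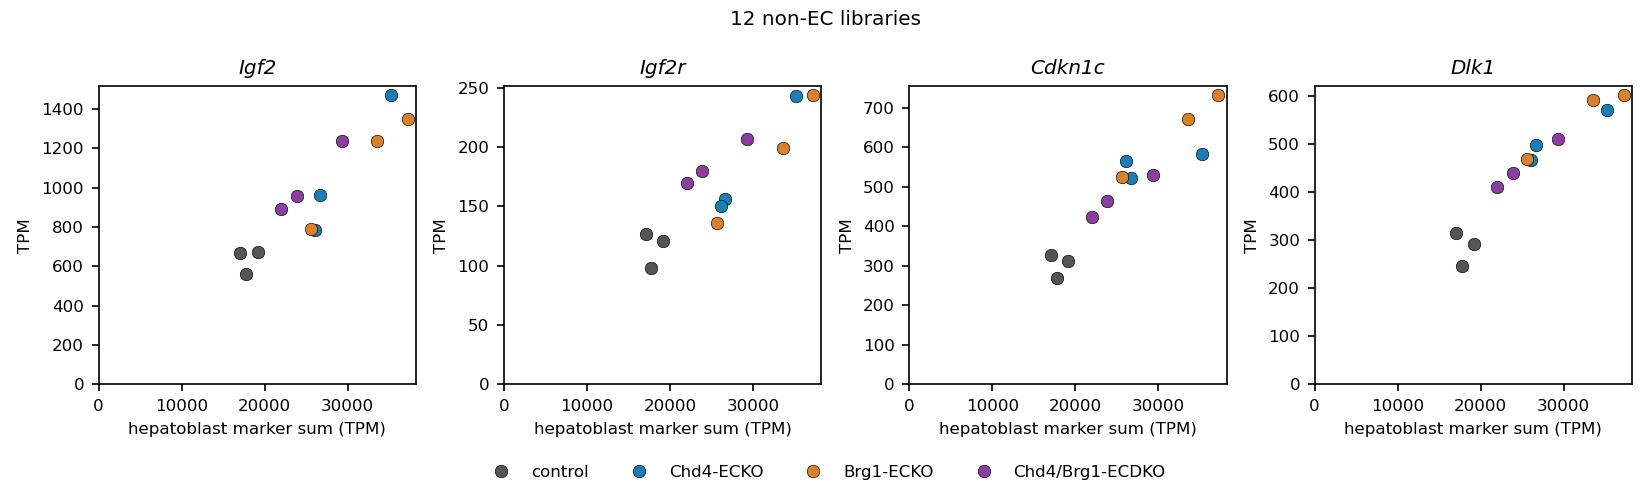
TPM of Igf2, Igf2r, Cdkn1c and Dlk1 against the summed TPM of 8 hepatoblast genes in the 12 non-EC libraries, coloured by genotype. Axes start at 0. The 3 control libraries lie at the lower left of each panel, with hepatoblast sums of 17073 to 19159 TPM.

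The third comparison asked the same of LSECs, the fraction that holds the endothelial cells in which VE-cadherin-Cre acts. No member passed in any mutant. In Chd4-ECKO LSECs the log2 fold changes lay between -0.28 for Grb10 (-0.66 to 0.09) and 0.04 for Mest (-0.40 to 0.49), with adjusted p = 1 for each, and 0 of 8 members had an unadjusted p under 0.05 by limma, beside 6.49% of all 13444 genes. In that comparison 0.521% of genes were DEGs, and the Grb10 value ranged from -0.37 to -0.11 with single libraries left out. Mest, the member most restricted to LSECs, had 1415, 1507 and 1222 TPM in controls and 1350, 1404 and 1497 TPM in Chd4-ECKO, which overlapped. In Brg1-ECKO, where 0.0149% of genes were DEGs, 2 of 8 members had an unadjusted p under 0.05, beside 9.68% of all genes. Dlk1 had 546, 329 and 345 TPM in Brg1-ECKO against 295, 298 and 248 TPM in controls (log2 fold change 0.50, 0.10 to 0.90, adjusted p = 0.426), and Mest had 669, 1077 and 1175 TPM (-0.54, -0.98 to -0.10, adjusted p = 0.43). Without Brg1-ECKO replicate 1, the library with 27767 TPM of hepatoblast markers, these values were 0.27 for Dlk1 and -0.29 for Mest (adjusted p = 1 for both). Igf2r had 258, 111 and 143 TPM in Brg1-ECKO against 134, 124 and 96.8 TPM in controls, a log2 fold change of 0.45 (-0.09 to 0.99, adjusted p = 0.598) that was 0.11 without this library. The values with and without it were 0.27 and 0.06 for Igf2, -0.28 and -0.02 for Cdkn1c, 0.16 and 0.13 for Peg3, 0.15 and 0.02 for Grb10 and 0.11 and 0.27 for Plagl1, and none of them passed. With all Brg1-ECKO LSEC libraries, the 8 endothelial markers had a median of -0.458 and the 8 hepatoblast markers 1.184, with 0 called in either list. At an unadjusted p under 0.05 there were 5 endothelial and 8 hepatoblast markers, and their part was not tested.

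In Chd4/Brg1-ECDKO LSECs, where 0.565% of genes were DEGs, the member values lay between -0.22 for Cdkn1c (-0.74 to 0.29) and 0.36 for Dlk1 (-0.03 to 0.76), with adjusted p of 0.443 to 0.85 and 0 of 8 at an unadjusted p under 0.05, beside 12.1% of all genes. The median over all genes in that comparison was 0.155. Against Chd4-ECKO, Peg3 had 601, 573 and 680 TPM in Chd4/Brg1-ECDKO and 567, 289 and 483 TPM in Chd4-ECKO, a log2 fold change of 0.52 (0.06 to 0.98, adjusted p = 0.469). Grb10 had 522, 589 and 707 TPM in Chd4/Brg1-ECDKO and 473, 333 and 474 TPM in Chd4-ECKO, without overlap (0.51, 0.14 to 0.88, adjusted p = 0.453). With single libraries left out, these values ranged from 0.24 to 0.72 for Peg3 and from 0.34 to 0.62 for Grb10. In that comparison 0 of 8 members passed and 0.0372% of genes were DEGs. Peg3 and Grb10 were the 2 of 8 members with an unadjusted p under 0.05, beside 10.4% of all genes, and the median over all genes was 0.132. In non-EC cells, Chd4/Brg1-ECDKO against Chd4-ECKO gave values from -0.24 for Cdkn1c (-0.53 to 0.05) to 0.76 for Peg3 (-0.25 to 1.78), with 0 of 8 members at an unadjusted p under 0.05, beside 21.8% of all genes. Without non-EC Chd4-ECKO replicate 1 the Peg3 value was 1.35 (adjusted p = 0.0139), and up to 2 members were called with a library left out. In that comparison 0% of the 12223 genes were DEGs by limma with all libraries. The share of all genes called with a library left out was not counted, so these member counts have no background. Chd4 itself had 168 to 252 TPM in Chd4-ECKO LSECs and 246 to 285 TPM in controls, and Smarca4 had 111 to 157 TPM in Brg1-ECKO LSECs and 134 to 161 TPM in controls. In Chd4/Brg1-ECDKO LSECs Chd4 had 242, 250 and 256 TPM and Smarca4 had 130, 117 and 151 TPM, so that mutants and controls overlapped for both genes. Whole-gene TPM include reads of exons outside the floxed part, so these values do not check the deletion.

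Whether a mutant effect differed between the fractions was tested as an interaction in all 24 libraries. Cdkn1c was the member that passed. Its Brg1-ECKO effect was 1.35 lower on the log2 scale in LSECs than in non-EC cells (-1.35, -1.95 to -0.75, adjusted p = 0.025), where 0.639% of 13775 genes passed both thresholds. The LSEC values were 1316, 2552 and 1962 TPM against 1891, 2818 and 2210 TPM in controls, while the non-EC values were 732, 524 and 671 TPM against 327, 270 and 312 TPM. The mutant LSEC libraries overlapped the controls and the LSEC effect of -0.28 (-0.80 to 0.24, adjusted p = 0.733) did not pass, so that the difference rested mainly on the non-EC rise. Without LSEC Brg1-ECKO replicate 1 the LSEC effect was -0.02. With paired fractions as a block the adjusted p was 0.078, and without that library the difference was -1.10 (adjusted p = 0.0528). The call was also lost without LSEC control replicate 2 (-1.20, adjusted p = 0.0873), non-EC control replicate 2 (-1.27, adjusted p = 0.0699), non-EC Brg1-ECKO replicate 1 (-1.25, adjusted p = 0.0768) or non-EC Brg1-ECKO replicate 3 (-1.31, adjusted p = 0.0668). For Chd4-ECKO the Cdkn1c difference was -1.08 (-1.68 to -0.48, adjusted p = 0.0735) and the Dlk1 difference -0.87 (-1.36 to -0.37, adjusted p = 0.0844), where 0.690% of genes were called. Without non-EC Chd4-ECKO replicate 1 both passed by adjusted p (-1.05, adjusted p = 0.0279, and -0.78, adjusted p = 0.0412). Of these, only Cdkn1c also passed the fold threshold. The Mest difference in Brg1-ECKO was -1.22 (-1.96 to -0.49, adjusted p = 0.0867), with non-EC values of 7.33, 10.1 and 10.7 TPM in the mutant against 8.12, 4.05 and 4.63 TPM in controls, which overlapped. It was -0.98 (adjusted p = 0.196) without LSEC Brg1-ECKO replicate 1 and passed without non-EC control replicate 1 (-1.48, adjusted p = 0.0399). For Chd4/Brg1-ECDKO, where 0.0581% were called, the Cdkn1c difference was -0.86 (-1.46 to -0.26, adjusted p = 0.42). The hepatoblast sums were higher in mutant non-EC libraries. In the same interaction test the 8 hepatoblast markers had medians of -0.905 in Chd4-ECKO and 0.152 in Brg1-ECKO, with 0 called in each. The 8 endothelial markers had medians of 0.011 and -0.655, with 0 called in Chd4-ECKO and 1 called lower in Brg1-ECKO. The part of either list in these differences was not tested.

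The balance of growth factor and clearance receptor was followed as the log2 ratio of Igf2 to Igf2r. It was 2.98, 3.21 and 3.10 in LSEC controls and 2.38, 2.50 and 2.47 in non-EC controls. Over 12 libraries each the LSEC mean was 2.94 and the non-EC mean 2.49, a difference of 0.44 (two-sided permutation p = 2e-05, the smallest it can give). The ratio was higher in LSECs in 12 of 12 pairs of the same genotype and replicate number, with a mean difference of 0.44 ± 0.19 (SD) and an exact sign-flip p of 0.000488, the smallest it can give. This paired test was added after the data were seen. Between mutants and controls the ratio differed by -0.26 to -0.18 in LSECs and by 0.00 to 0.09 in non-EC cells, with exact permutation p of 0.1 to 0.9 (adjusted 0.6 or more over 6 tests, where 3 against 3 cannot go below 0.1). In mutant non-EC cells the ratio thus moved by at most 0.09, while the mean TPM of Igf2 and Igf2r were 1.58 to 1.77 times those of controls. The planned ratios of Igf2 to H19 and of Dlk1 to Meg3 were not computed, since H19 and Meg3 were not analysed here.

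The members were then set beside other genes of the IGF axis. Of 20 such genes, 15 were higher and 5 lower in LSECs by adjusted p over the 4 genotypes, beside 82.6% of all genes, and 10 were higher and 3 lower at the fold threshold, beside 29.0%, with a median log2 fold change of 1.10 against -0.002 over all genes. In the same comparison 7 of 8 mesenchymal markers were called higher (median 4.342) and 8 of 8 hepatoblast markers lower (median -2.008). Their part in this list and the lists below was not tested. Among the binding proteins, which hold IGF1 and IGF2 outside the cell, members differed in direction. Igfbp3 was higher by 5.17, Igfbp5 by 4.59, Igfbp7 by 3.23 and Igfbp2 by 2.72 (adjusted p = 2.92e-18, 1.41e-15, 1.24e-15 and 5.4e-14). Igfbp1 was lower in LSECs with -2.11 (adjusted p = 7.09e-09), and Igfals and the insulin receptor substrate Irs2 were lower with -1.05 and -1.29 (adjusted p = 1.88e-09 and 1.73e-10). Igfbp1, Igfals and Irs2 were picked here with their values in view. Igf1, the second ligand of the IGF1 receptor, was higher in LSECs by 3.65 (adjusted p = 2.63e-13), and Pappa2, a protease that cuts binding proteins, by 2.56 (adjusted p = 6.29e-12). In non-EC mutants, Igfbp1, a liver-secreted binding protein, rose by 1.36 in Chd4/Brg1-ECDKO (adjusted p = 0.0291) and by 1.08 and 0.85 in the single mutants of Chd4 and Brg1 (adjusted p = 0.0103 and 0.0175). Igfbp4 rose by 0.89 and 0.90 in the single mutants (adjusted p = 0.00669 and 0.00275), as did Igfals, the acid labile subunit of the circulating IGF complex, by 0.72 and 0.79 (adjusted p = 0.0189 and 0.00778). Igf1r, the receptor through which IGF2 signals, fell by 0.56 in Brg1-ECKO (adjusted p = 0.034). By adjusted p, 3 of 18 tested were thus higher in Chd4-ECKO, 3 higher and 1 lower in Brg1-ECKO and 1 higher in Chd4/Brg1-ECDKO, beside 9.48%, 11.7% and 0.581% of all genes. Under quantile normalization 5 were higher in Chd4-ECKO and 2 in Chd4/Brg1-ECDKO, beside 15.6% and 0.581% of genes. Of the 8 hepatoblast markers, 6, 8 and 1 were higher by adjusted p in the same libraries, and their part in these values was not tested. In Chd4-ECKO, Brg1-ECKO and Chd4/Brg1-ECDKO LSECs 0 of 20 genes passed by adjusted p (limma), beside 0.707%, 0.0223% and 0.870% of all genes. At an unadjusted p under 0.05 there were 1, 4 and 6 of 20 in that order, beside 6.49%, 9.68% and 12.1%. The Igfbp4 effect was lower in LSECs than in non-EC cells by 0.95 in Chd4-ECKO (adjusted p = 0.0172) and 1.32 in Brg1-ECKO (adjusted p = 0.00488).

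**Figure D5:**
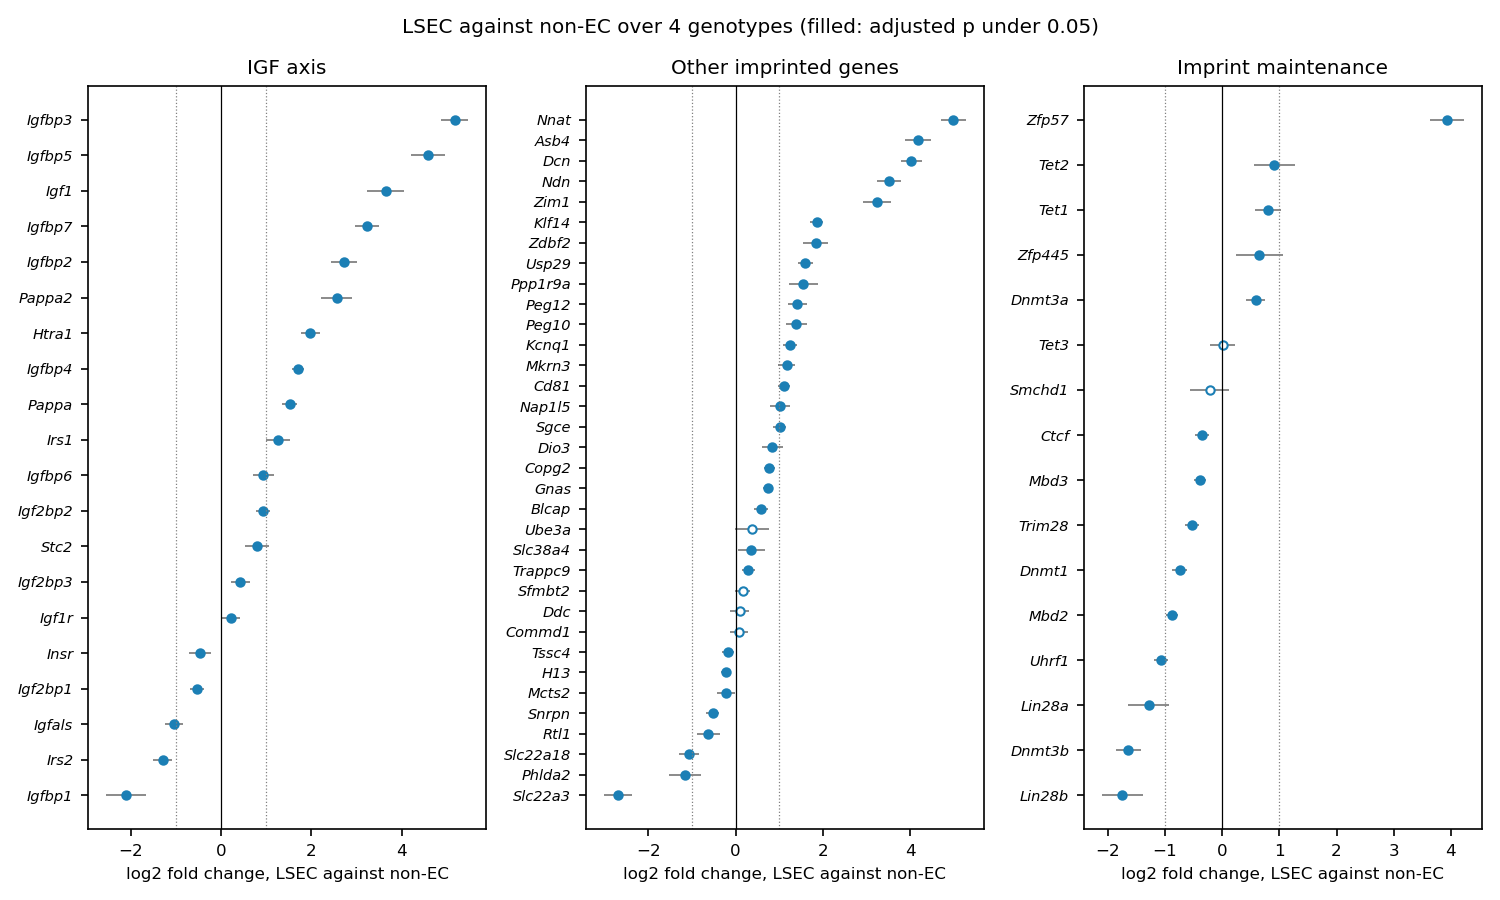
Log2 fold change of LSECs against non-EC cells over 4 genotypes, with 95% intervals, for tested genes of the IGF axis (20), other imprinted genes (34) and imprint maintenance (16). Filled points passed an adjusted p of 0.05 and dotted lines mark the fold threshold. Igfbp3, Nnat and Zfp57 lead the 3 lists.

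Of 47 other imprinted genes listed, 40 were in the table and 34 passed the filter on low values. By adjusted p 22 of them were higher and 8 lower in LSECs, beside 82.6% of all genes that passed in either direction, with a median log2 fold change of 0.81. At the fold threshold 16 were higher and 3 lower, beside 29.0% of genes. Under quantile normalization the median was 0.491 and these counts were 11 and 4, beside 27.9% of genes, and without mitochondrial and globin genes they were 18 and 1 of 35, beside 29.7%. Nnat, a proteolipid of neural and endocrine tissue, was higher by 4.99 (adjusted p = 3.69e-18), Asb4 by 4.18 (adjusted p = 6.39e-17) and Dcn, a matrix proteoglycan of mesenchymal cells, by 4.02 (adjusted p = 6.3e-18). Ndn was higher by 3.51 (adjusted p = 9.64e-16) and Zim1, the imprinted neighbour of Peg3, by 3.23 (adjusted p = 3.73e-14). Slc22a3, a transporter gene next to Igf2r, was lower with -2.69 (adjusted p = 6.86e-13). In non-EC mutants, Phlda2, a maternally expressed brake on placental growth, rose by 0.96 in Chd4-ECKO (adjusted p = 0.0318) and 1.10 in Brg1-ECKO (adjusted p = 0.0123), and Rtl1, from the cluster of Dlk1, by 0.86 and 0.80 (adjusted p = 0.0254 and 0.0243). Nnat (0.86, adjusted p = 0.0414) and Dcn (0.64, adjusted p = 0.0374) also rose in Chd4-ECKO, and Sgce (0.61, adjusted p = 0.0169) and H13 (0.42, adjusted p = 0.0213) in Brg1-ECKO. Of 29 tested in non-EC cells, 4 thus rose in each single mutant, beside 9.48% and 11.7% of all genes that passed in either direction, so that these shares were near the background. Under quantile normalization 7 rose in Chd4-ECKO, beside 15.6% of all genes, and without mitochondrial and globin genes 3 of 31 did, beside 8.17%. Hepatoblast markers rose in the same libraries, with 6 of 8 higher by adjusted p in Chd4-ECKO and 8 of 8 in Brg1-ECKO. Their part was not tested. By limma 0 of 29 passed in Chd4/Brg1-ECDKO non-EC cells, beside 0.581% of all genes. In LSECs 0 of 34 passed with Chd4, Brg1 or both deleted, beside 0.707%, 0.0223% and 0.870% of all genes. At these shares a count of 0 is near the background. At an unadjusted p under 0.05 there were 5 of 29 in Chd4/Brg1-ECDKO non-EC cells, beside 1433 of the 12223 genes. In LSECs there were 1, 2 and 4 of 34 at that cut, beside 6.49%, 9.68% and 12.1%.

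A list of factors of DNA methylation and imprint maintenance also holds the RNA-binding proteins Lin28a and Lin28b. Of 16 of its genes tested, 5 were higher and 9 lower in LSECs by adjusted p, beside 82.6% of all genes, with a median log2 fold change of -0.37. The median was -0.126 under quantile normalization, where 4 were higher and 8 lower, and -0.118 without mitochondrial and globin genes. At the fold threshold 1 was higher and 4 were lower, 2 of them Lin28a and Lin28b, beside 29.0% of genes. The share called was thus near the background. Under quantile normalization 1 was higher and 3 were lower at that threshold, beside 27.9% of genes. Without mitochondrial and globin genes 3 were higher and 3 lower, beside 29.7% of genes, so that the lean to lower calls was lost under that scaling. Erythroid and hepatoblast markers were called lower in LSECs for 8 of 8 genes each (medians -2.216 and -2.008), and their part was not tested. Zfp57, whose protein binds the hexamer TGCCGC where it is methylated, was higher in LSECs by 3.93 (adjusted p = 3.15e-16). The hexamers marked in the promoters were found by sequence alone, and their methylation was not measured. Lin28b and Lin28a, fetal RNA-binding proteins, were lower with -1.75 and -1.29 (adjusted p = 5.15e-09 and 7.24e-07), as were Dnmt3b, a methyltransferase, with -1.64 (adjusted p = 4.3e-12) and Uhrf1, which brings DNMT1 to newly copied DNA, with -1.07 (adjusted p = 2.63e-13). Tet2, a dioxygenase that oxidises methylated cytosine, was higher by 0.91 (adjusted p = 4.79e-05). In non-EC mutants Ctcf, the insulator protein of the Igf2 and H19 locus, fell by 0.46 in Chd4-ECKO (adjusted p = 0.0188) and 0.42 in Brg1-ECKO (adjusted p = 0.016), while in Brg1-ECKO Lin28a rose by 1.01 (adjusted p = 0.0198) and Mbd2 fell by 0.36 (adjusted p = 0.00847). By adjusted p, 1 of 16 thus passed in Chd4-ECKO and 3 of 16 in Brg1-ECKO, beside 9.48% and 11.7% of all genes, and under quantile normalization 2 were higher and 2 lower in Chd4-ECKO, beside 15.6%. The part of the hepatoblast markers, of which 6 and 8 of 8 were higher in these libraries, was not tested. By limma 0 of 16 passed by adjusted p in Chd4/Brg1-ECDKO non-EC cells, beside 0.581% of all genes, and 0 in each LSEC mutant. In Chd4-ECKO, Brg1-ECKO and Chd4/Brg1-ECDKO LSECs the share of all genes was 0.707%, 0.0223% and 0.870%. At an unadjusted p under 0.05, 2 of 16 passed in Chd4/Brg1-ECDKO non-EC cells, beside 1433 of 12223 genes. In the LSEC mutants 0, 2 and 4 did, in the order above, beside 6.49%, 9.68% and 12.1%. For LSECs against non-EC cells over the 4 genotypes, the 3 lists were also counted by adjusted p without mitochondrial and globin genes. The IGF axis then had 15 higher and 4 lower of 20, and the other imprinted genes 26 and 6 of 35. Imprint maintenance had 5 and 8 of 16. The share of all genes by adjusted p was 82.6% under the main scaling. For this comparison that share was not counted without mitochondrial and globin genes or under quantile normalization.

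After group means were subtracted in all 24 libraries, some pairs of members had high correlations. Pearson's r was 0.93 between Igf2 and Igf2r, 0.89 between Igf2 and Dlk1, 0.85 between Igf2 and Grb10 and 0.82 between Peg3 and Plagl1. Cdkn1c had r of -0.19 to 0.45 with the other members over both fractions pooled. Its r with the hepatoblast sum was 0.79 in non-EC cells and -0.62 in LSECs, the latter -0.17 without the 2 farthest libraries. Correlations between members within a fraction were not computed. Mest had its highest value with Plagl1 (0.77) and 0.00 with Igf2r. Of 10233 genes with a mean of at least 5 TPM, the closest to Igf2 were Raph1, Lifr and Dennd5b (r = 0.95 each), to Igf2r Fn1, Uggt1 and Ptprf (0.96, 0.95 and 0.95), to Dlk1 Sec31a, Fn1 and Igf2r (0.95, 0.94 and 0.94) and to Grb10 Pard3, Tln2 and Gpc3 (0.94, 0.93 and 0.93). The closest to Peg3 were Phldb2, Zim1 and Lrp6 (0.97 each) and to Plagl1 Magi1, Cdh11 and Robo2 (0.89 each). Mest was closest to Oit3, Hoxb4 and Lyve1 (0.91, 0.89 and 0.89), of which Lyve1 is in the endothelial list. These are descriptions over libraries that share cell composition, and no test was made.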

How the data were processed

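RNA of CD146+ LSECs and of non-EC cells was sequenced in 24 libraries, after digestion with transcription inhibitors, CD146 bead selection and poly-A library preparation. The authors trimmed the reads, used CLC Genomics Workbench to map them to GRCm39, and deposited the expression of each gene as TPM. The version and the strand setting were not given in the sources used here. The labels give a single batch for all libraries. TPM hold no depth, so no counting intervals were made.

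TPM were analysed as log2(TPM + 1). A gene was tested where 3 or more libraries held 1 TPM or more, 13444 in LSECs, 12223 in non-EC cells and 13775 over both. limma 3.58.1 in R 4.3.3, with a mean-dependent trend, was fitted to the 4 genotypes of a fraction (12 libraries) or to all 8 groups (24 libraries), and p-values were adjusted by Benjamini-Hochberg over all genes tested. A DEG had an absolute log2 fold change above 1 and an adjusted p under 0.05. Ratios and correlations used exact or 100000-resample permutation tests in scipy 1.17.1. Simulated data had a log2 change of 2 set in 200 genes with a mean log2 value above 3. In the LSEC Chd4-ECKO comparison 99% of these were recovered with 2 others called, and 94% with 7 others in the Chd4-ECKO interaction. Recovery of smaller changes, such as those of the members between mutants and controls, was not tested.

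Named genes were the members and, from 3 lists (IGF axis, other imprinted genes and imprint maintenance), up to 6 genes with an adjusted p under 0.05 and the largest change in a comparison. Likeness named the 3 genes with the highest r for each member. The promoter and the likeness of Cdkn1c are not reported here. The members and lists were chosen with earlier results of these data known. LSEC and non-EC libraries of the same genotype and replicate number deviated together in 12 of 12 pairs (r of 0.124 to 0.411), so that the numbers were taken as pairs between fractions, from this check and not from the labels. Alternatives were another pseudocount, other filters, quantile normalization, TPM without mitochondrial and globin genes, limma without a trend, models of the compared groups alone, the replicate block, no fold threshold and each library left out in turn.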

Additional observations from a re-analysis of the deposited data

Results flagged for a closer look

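The Brg1-ECKO effect on Cdkn1c differed between the fractions by -1.35 on the log2 scale (LSEC minus non-EC, adjusted p = 0.025 by limma), and it was picked out because the test of the difference itself passed. The effect was -0.28 in LSECs, which did not pass (adjusted p = 0.733), and 1.07 in non-EC cells. The LSEC library with 27767 TPM of hepatoblast markers is among the 3 Brg1-ECKO libraries, and without it the LSEC effect was -0.02 and the difference -1.10 (adjusted p = 0.0528). With the LSEC and non-EC libraries paired as a block the adjusted p was 0.078, so that the call was lost under both settings.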

How the results depend on the processing

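Member fold changes, Igf2 to Igf2r ratios and correlations of members with the hepatoblast sum in LSECs were recomputed. Fold changes were judged by adjusted p, and ratios and correlations by unadjusted permutation p. With a library left out, 558 values kept their direction and side of the threshold, 17 changed sign, 15 passed where they had not and 12 no longer passed. Under the other settings these numbers were 542, 3, 15 and 3. The sign changes were in small values. For LSECs against non-EC cells, Igf2r over the 4 genotypes was 0.02 and Dlk1 in controls 0.31 under quantile normalization, and Dlk1 in controls was 0.24 without mitochondrial and globin genes. Those scalings moved the median of all genes in the 4-genotype comparison by -0.135 and 0.239. With single libraries left out, Igf2r in controls ranged from -0.08 to 0.16, Dlk1 in controls from -0.12 to 0.06, Plagl1 from -0.89 to 0.17 in Chd4-ECKO and from -0.32 to 0.25 in Brg1-ECKO non-EC cells, Plagl1 in Brg1-ECKO LSECs from -0.08 to 0.27, and Peg3 in Chd4-ECKO non-EC cells from -0.74 to 0.33. The Igf2 to Igf2r ratio in Chd4/Brg1-ECDKO non-EC cells ranged from -0.05 to 0.04. Without LSEC Brg1-ECKO replicate 1, r with the hepatoblast sum in LSECs was -0.08 for Peg3 and -0.39 for Grb10.

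The number of members called in the Chd4-ECKO interaction rose from 0 to 1 under quantile normalization (Cdkn1c, -1.07) and without mitochondrial and globin genes (-1.06), and ranged from 0 to 1 with libraries left out. That of the Brg1-ECKO interaction was 0 with the replicate block and ranged from 0 to 2. Without the fold threshold 2 members were called in Chd4-ECKO and 2 in Brg1-ECKO non-EC cells, by the construction of that setting, and with libraries left out the counts ranged from 0 to 3 in Brg1-ECKO and from 0 to 2 in Chd4/Brg1-ECDKO against Chd4-ECKO non-EC cells. For the counts with libraries left out, and for the interactions under the other scalings, the share of all genes called was not counted. The cause of the other changes was not tested.

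Within a fraction the replicate numbers were not shown to pair the embryos (r over 0.1 in 13 of 18 LSEC pairs and 9 of 18 non-EC pairs), although 10 of 12 LSEC libraries and 6 of 12 non-EC libraries correlated best with their own number. With the block, members with an adjusted p under 0.05 in non-EC cells numbered 5 for each single mutant (Igf2, Igf2r, Grb10, Cdkn1c and Dlk1) and 3 for Chd4/Brg1-ECDKO (Igf2r, Cdkn1c and Dlk1). At the same cut 1438, 1603 and 301 of all 12223 genes passed with the block, against 1159, 1426 and 71 without it. At both thresholds, genes called over the whole table numbered 161, 175 and 23 with the block against 108, 167 and 14 without it. In LSECs the genes called at both thresholds numbered 87, 5 and 92 against 70, 2 and 76. With the depth unknown, low values such as those of Plagl1 and Mest in non-EC cells have a precision given by the 3 replicates alone.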
